A study of Mus musculus with 6 samples.

Results

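The mitochondrially encoded transcripts are the RNAs made from the mitochondrion's own circular genome. They were taken as all rows of the deposited count table whose Ensembl identifier carries a symbol starting with mt- in the GENCODE M21 annotation of mm10. Of 37 such genes on chromosome M, 13 are among the 22579 genes counted, and all 13 are protein-coding. The other 24, which are 2 rRNA and 22 tRNA genes, are not analysed here, so the transcript classes could not be compared with each other.

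The libraries came from THY1-positive spermatogonia at day 4, about 1000 cells each, with 3 libraries of control littermates and 3 of Ddx20 knockout mice. THY1 marks the cell surface of early germ cells, among other cells, and DDX20 is an RNA helicase of the SMN complex. The knockout libraries are also labelled cKO, and the labels used here do not name the promoter or the cells in which Ddx20 was deleted, nor which library came from which animal. RNA was primed with oligo-dT, amplified by SMART-seq2 and read from both ends at 150 bases each, a protocol that by design keeps neither molecular identifiers nor the strand. With no animals named, the p-values reflect library-to-library spread, which may be technical.

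Mitochondrial DNA encodes core subunits of the respiratory chain and of ATP synthase, together with the rRNAs and tRNAs needed to translate them. Both strands are transcribed into long precursors, and excision of the tRNAs that lie between the genes releases most of the mRNAs. Most of these mRNAs then receive a short poly(A) tail, which is what oligo-dT can capture.

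Total counts were between 8428871 and 12497967 per library. Reads of Ddx20 numbered 668, 383 and 531 in control libraries, against 128, 168 and 119 in knockout libraries (log2 fold change −1.89 ± 0.26 SE, adjusted p 0.0118 by edgeR). With knockout 1 and 2 as 1 library its log2 fold change was −1.94 and the call was lost (edgeR adjusted p 0.0541; 1.1e-05 by DESeq2), and it was also lost without knockout 1 (−1.85, adjusted p 0.0554) and without knockout 3 (−1.79, adjusted p 0.0620). The libraries knockout 1 and knockout 2 stood apart as an unusually similar pair, with a chi-square of 1.78 per gene on average (about 1 for pure sampling), compared with 12.0 to 104.2 in the 14 other pairs. Both were kept, since sampling alone does not account for 1.78, but this cannot show that they came from separate cells or animals. Knockout SDs with n = 3 and the main p-values count both as separate libraries. The tests were also run with the pair counted as 1 library. All 11 germ cell markers were detected in every library, with a summed level of 3894 to 4687 CPM (gene counts relative to the library size after TMM scaling) in controls and 4239 to 4633 CPM in knockouts. Of these, Gfra1, Etv5 and Ret were called lower in the knockouts by edgeR, and of the other lists the Sertoli marker Clu and the myoid markers Acta2 and Actg2 were called higher. Summed markers of macrophages (5 of 5 detected in every library) were 494 to 1205 CPM in controls and 1421 to 2153 CPM in knockouts. Those of Sertoli cells (4 of 6 detected in every library, Amh and Rhox5 at 0 in at least 1) were 56.0 to 68.8 and 105.5 to 140.0 CPM. Those of myoid cells (3 of 4, Tagln at 0 in at least 1) were 58.8 to 75.4 and 147.0 to 223.4 CPM. Summed Leydig markers (20.3 to 60.3 and 43.8 to 61.9 CPM), endothelial markers (30.0 to 35.3 and 29.8 to 44.8), T cell markers (2.45 to 11.5 and 8.55 to 13.4, Cd8a at 0 in at least 1 library) and red blood cell markers (1.53 to 22.0 and 4.23 to 5.30, Hbb-bs and Hbb-bt at 0 in at least 1) overlapped. The macrophage, Sertoli and myoid sums did not overlap between the groups, as was also so of the mitochondrial share of reads, and their part in the mitochondrial values was not tested. Clu alone stood at 23.1 to 34.6 CPM in controls and 80.8 to 107.5 CPM in knockouts, and Acta2 alone at 52.6 to 73.5 and 136.9 to 207.3 CPM. The differences in the Sertoli and myoid sums thus rest largely on 1 gene each, and no macrophage marker was called.

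The members are short genes without introns that lie end to end, and some share bases. The last 43 bases of mt-Atp8 are also the first bases of mt-Atp6 (chromosome M, 7927 to 7969), mt-Nd4l and mt-Nd4 share 7 bases, and mt-Nd5 and mt-Nd6 share 14 bases on opposite strands. The end of mt-Atp8 is shown with the shared stretch in capitals, since a read that reaches into it overlaps both genes:
mt-Atp8 and mt-Atp6 overlap: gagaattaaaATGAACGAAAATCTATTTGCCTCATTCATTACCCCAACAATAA

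All mRNA genes but mt-Nd6 are annotated on the plus strand. Of the 13 genes, 10 end in a whole stop codon, and mt-Co3, mt-Nd4 and mt-Cytb end 1 base into a codon, on a single T that polyadenylation is known to complete to a stop. The last 20 bases of these 3 genes are given with that T in capitals:
mt-Co3: catttattgatgaggatctT
mt-Nd4: aattacaggcctgacaataT
mt-Cytb: aatactaaaattatatccaT

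Sequence also divided the members by their nuclear copies, which are stretches of mitochondrial DNA inserted in the chromosomes in the past. Alignment to all other GENCODE M21 transcripts (blastn, at least 90% identity over at least 100 bases) found 17 annotated nuclear genes that match a member. None of the 17 has a row in the count table, in which 80.6% of rows are protein-coding, 11.6% lincRNA and 7.29% antisense genes. Near-identical copies, 7 in all, lie side by side on chromosome 1 between 24611535 and 24616197, on the minus strand. They run in the opposite direction to chromosome M, and the sum of the chromosome 1 and mitochondrial positions is constant to within 1 base. Together they thus keep, in reverse, the order and spacing of chromosome M from 6390 to 11042, a span of 4653 bases. The bases between the annotated copies were not read. Gm28661 matched mt-Co2, Gm10925 mt-Atp6, Gm28437 mt-Co3, Gm10222 mt-Nd4l and Gm28439 the first 876 bases of mt-Nd4, each at 100% identity. Gm28438 matched mt-Nd3 at 99.7% with the substitution T3C, and Gm29216 matched mt-Co1 from base 1063 to 1545 at 99.8% with the substitution A1066T. Positions are counted from 1 at the 5′ end of the mitochondrial gene, whose base is given first. mt-Atp8 has no annotated copy of its own but lies between mt-Co2 and mt-Atp6 in the same stretch. The remaining copies were more diverged, such as Gm11410 of mt-Cytb on chromosome 4 at 92.9% identity and Gm13340 of mt-Co1 on chromosome 2 at 97.6%.

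The first 60 bases of mt-Co2 and mt-Nd3, and bases 2 to 61 of mt-Cytb, are shown with their copies because they are examples of a copy that these bases cannot tell apart, a copy with 1 difference and a diverged copy. Capitals mark the bases that differ within each pair:
mt-Co2: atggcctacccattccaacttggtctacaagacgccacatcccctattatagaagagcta
Gm28661: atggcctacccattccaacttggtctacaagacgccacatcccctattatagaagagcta
mt-Nd3: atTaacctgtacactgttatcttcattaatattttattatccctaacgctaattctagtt
Gm28438: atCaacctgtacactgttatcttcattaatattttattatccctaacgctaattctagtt
mt-Cytb: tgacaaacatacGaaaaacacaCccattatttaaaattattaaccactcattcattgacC
Gm11410: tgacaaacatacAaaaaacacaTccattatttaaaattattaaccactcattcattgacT

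By this division 6 members lie inside the copied stretch (mt-Co2, mt-Atp8, mt-Atp6, mt-Co3, mt-Nd3 and mt-Nd4l), 2 lie partly in it (mt-Co1 and mt-Nd4) and 5 lie outside (mt-Nd1, mt-Nd2, mt-Nd5, mt-Nd6 and mt-Cytb). The 6 inside were the 6 lowest members per kilobase of gene length. Their levels ran from 14.2 to 889 CPM per kilobase over all genes and libraries, and those of the other 7 from 1913 (mt-Nd5) to 63709 (mt-Nd1). The 2 ranges did not overlap, and the lowest value of the 7 was 2.15 times the highest value of the 6. All 6 together held 0.464% of the mitochondrially encoded reads of the 6 libraries. How reads that match both the mitochondrial genome and chromosome 1 were counted is not given in the sources used here, and its part in these levels was not tested.

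**Figure D1:**
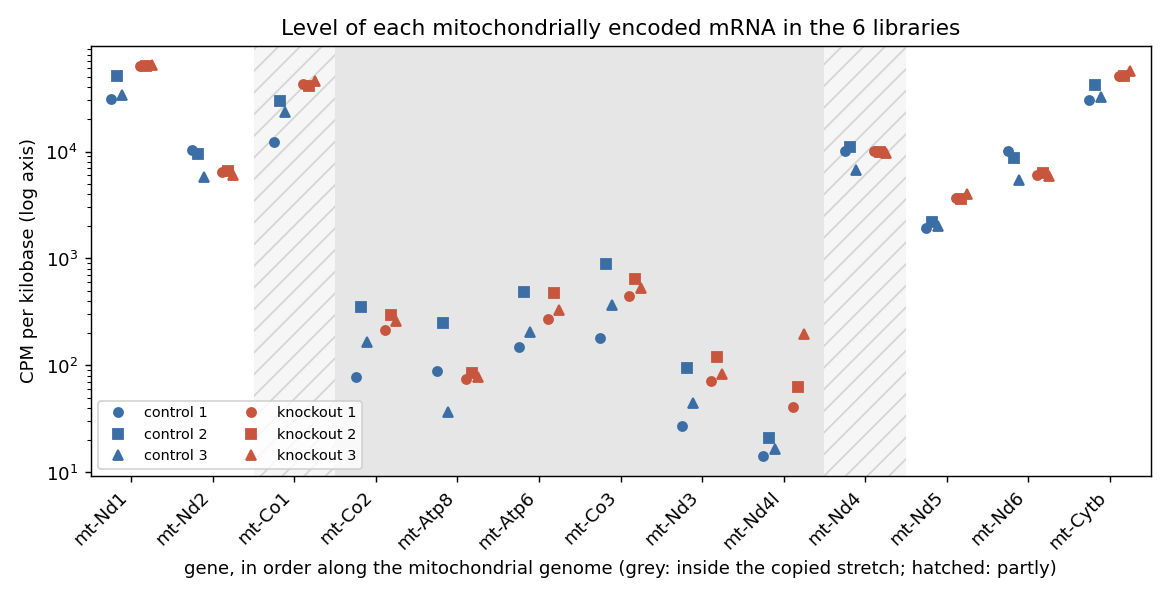
Level of each of the 13 genes in CPM per kilobase of gene length (log axis), with 1 point per library and genes in their order along the mitochondrial genome. The 6 genes in the grey area, inside the stretch copied to chromosome 1, lie between 14.2 and 889, and the others, with the 2 partly copied genes hatched, lie between 1913 and 63709.

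Mitochondrially encoded reads took a larger share of the knockout libraries. The share of all counted reads was 14.5%, 16.9% and 14.01% among controls and 19.8%, 19.8% and 20.1% among knockouts. Every knockout library was above every control library, with means of 15.2% ± 1.54 and 19.9% ± 0.194 (SD, n = 3 per group). The 95% Wilson intervals of these shares were at most 0.0238 percentage points wide to either side and cover counting error only. No p is given for sums over members. With knockout 1 and 2 counted as 1 library the difference was 4.81 percentage points against 4.76, and it ran from 4.19 without control 3 to 5.63 without control 2. More genes also had a read in the knockouts, 19127, 19152 and 19447 against 16822, 18138 and 17557 in the controls, at a greater depth in 2 of 3 knockouts than in any control.

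The larger share came from a few genes. mt-Nd1, mt-Co1 and mt-Cytb, the 3 genes with the most reads of all 22579, together held 10.4%, 13.6% and 11.6% of all reads in control libraries and 17.0%, 16.8% and 17.4% in knockout libraries. mt-Nd2, mt-Nd4 and mt-Nd6, set beside each other after their values were seen, held 3.69%, 2.81% and 1.99% in control libraries and 2.19%, 2.21% and 2.01% in knockout libraries, which overlap. By respiratory complex, the share of all reads was higher in each knockout than in each control for complex IV (3.61% ± 1.11 and 6.10% ± 0.192), complex III (4.33% ± 0.252 and 5.48% ± 0.206) and complex I (7.19% ± 1.11 and 8.30% ± 0.183; SD, n = 3 per group). Complex III is mt-Cytb alone. Of mitochondrially encoded reads in knockouts, complex IV held 30.6% and mt-Co1 by itself 30.4%. Complex I held 47.4% ± 5.91 of these reads in controls and 41.7% ± 1.32 in knockouts, with overlap. Log2 fold changes of complex I genes not inside the copied stretch ran from −0.42 (mt-Nd2) to 0.89 (mt-Nd5) by edgeR. The 2 complex V genes, both inside the copied stretch, held 0.0224% ± 0.0121 and 0.0238% ± 0.00690 of reads.

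Each gene was then tested with the quasi-likelihood F test of edgeR over all 14766 genes that passed the filter on low counts, which all 13 members did. At a Benjamini-Hochberg adjusted p under 0.05, 2 members rose in the knockouts, mt-Nd5 and mt-Nd4l, 0 fell and 11 did not pass. Of all genes tested 2.03% were called higher and 2.8% lower. Without an overlap between the groups, 5 of 13 members were higher and 0 lower, where this was so for 16.8% and 15.8% of all genes tested. At an unadjusted p under 0.05, 4 members were higher and 0 lower, where 11.3% and 12.8% of all genes tested were. DESeq2 called 5 members higher (5.38% of all genes) and limma-voom 4 (7.38% of all genes), and both called 0 lower. With knockout 1 and 2 as 1 library edgeR called 0 of the 13, but it called 1 gene of 15406 in all (0.00649% higher). In that form DESeq2 called 5 members higher (1.29% of all genes) and limma-voom 2 (1.36% of all genes). The median log2 fold change of the 13 was 0.37, beside 0.01 for all genes tested. Scaling by library size alone moved the latter to −0.26 and the former to 0.19. The median of the 13 was 0.16 without control 1 and 0.98 without control 2. The TMM factors were 1.24, 0.956 and 1.10 in controls and 0.925, 0.928 and 0.891 in knockouts, without overlap. Directions below are relative to TMM scaling.

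**Figure D2:**
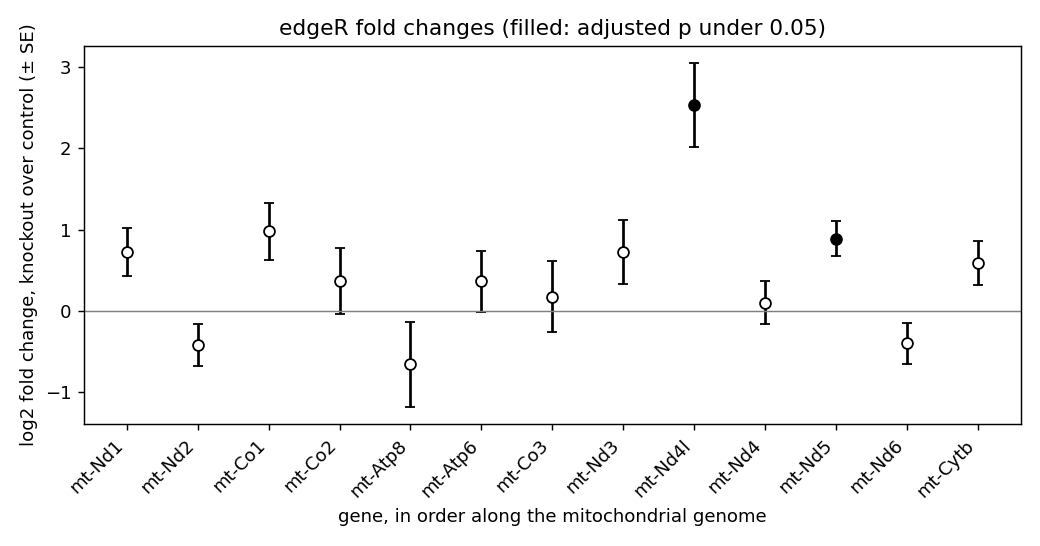
Log2 fold change of each of the 13 genes, knockout over control, by edgeR, with bars of 1 standard error and genes in their order along the mitochondrial genome. The filled points are mt-Nd4l (2.53) and mt-Nd5 (0.89), which passed the test, and mt-Nd2, mt-Atp8 and mt-Nd6 are the 3 genes below 0.

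The complex I subunits encoded in mitochondrial DNA belong to its membrane arm, which pumps protons. mt-Nd1 encodes the subunit next to the quinone site (ENSMUSG00000064341, chromosome M, 2751 to 3707). It stood at 29824, 48571 and 32021 CPM in the controls and at 60187, 60621 and 60970 CPM in the knockouts. The groups did not overlap, and the knockouts lay far closer together than the controls. It did not pass in edgeR (log2 fold change 0.72 ± 0.29 SE, adjusted p 0.169), while the adjusted p was 0.00374 by DESeq2, 0.0147 by limma-voom and, without control 2, 0.0470 by edgeR with a log2 fold change of 0.98. With knockout 1 and 2 as 1 library the adjusted p was 0.0335 by DESeq2 and 0.201 by limma-voom.

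mt-Nd2, another membrane arm subunit (chromosome M, 3914 to 4951), did not follow mt-Nd1, its neighbour on the genome. It stood at 10709, 9797 and 6047 CPM in the controls and at 6747, 6874 and 6216 CPM in the knockouts. Control 3 lay below all knockouts and the other two controls above them, so the groups overlapped (log2 fold change −0.42 ± 0.26, edgeR adjusted p 0.365). The log2 fold change was −0.26 without control 1 and −0.63 without control 3.

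mt-Nd4 (chromosome M, 10167 to 11544) stood at 13786, 15198 and 9279 CPM in the controls and at 13872, 13759 and 13412 CPM in the knockouts. Its groups overlapped, and control 3 was again the lowest control (log2 fold change 0.10 ± 0.26, edgeR adjusted p 0.856). The fold change was −0.09 without control 3, 0.26 without control 2 and −0.16 by library size alone.

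mt-Nd5, the largest of these subunits (ENSMUSG00000064367, chromosome M, 11742 to 13565), rose. It stood at 3490, 4034 and 3658 CPM in the controls and at 6725, 6599 and 7380 CPM in the knockouts, and the groups were well apart. The knockout level was 1.85 times the control level (log2 fold change 0.89 ± 0.21 SE, edgeR adjusted p 0.0414). Per kilobase it was the lowest of the 7 abundant members, at 2043 ± 153 CPM per kilobase in controls and 3784 ± 230 in knockouts (SD, n = 3 per group). Its call was lost with knockout 1 and 2 as 1 library (log2 fold change 0.92, edgeR adjusted p 0.219), with the replicate number as a block (0.89, adjusted p 0.0757), without control 3 (0.87, adjusted p 0.0962) and without knockout 1, 2 or 3 (0.91, 0.93 and 0.83, adjusted p 0.222, 0.207 and 0.132). The size of the change moved little in these fits, and without knockout 1, 2 or 3 edgeR called 5, 10 and 3 genes in all, against 713 with all libraries. It did depend on the scaling. The log2 fold change was 0.63 with library size alone (edgeR adjusted p 0.0163). Scaled to the total of mitochondrially encoded reads it was 0.22 (edgeR adjusted p 0.184).

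mt-Nd6 is the 1 mRNA gene on the minus strand (chromosome M, 13552 to 14070), and in human cells its mRNA is known to lack the poly(A) tail of the others. It stood at 5214, 4466 and 2798 CPM in the controls and at 3164, 3264 and 3032 CPM in the knockouts. As in mt-Nd2, control 3 lay below all knockouts and the other two controls above them (log2 fold change −0.40 ± 0.25, edgeR adjusted p 0.374). It was −0.21 without control 1 and −0.62 without control 3. Without a record of the strand, reads of plus-strand RNA that runs across this gene cannot be told apart from reads of mt-Nd6.

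mt-Nd3 and mt-Nd4l, small complex I subunits inside the copied stretch, had few reads. mt-Nd3 (chromosome M, 9459 to 9806) had control counts of 100, 347 and 203 reads and knockout counts of 268, 462 and 322, with control 2 among the knockouts (log2 fold change 0.72 ± 0.39, edgeR adjusted p 0.289). The fold change was 0.40 without control 1, 0.48 without knockout 2 and 1.35 without control 2.

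mt-Nd4l (ENSMUSG00000065947, chromosome M, 9877 to 10173) rose on low counts. Its control counts were 44, 66 and 64 reads and its knockout counts 131, 206 and 646. No control reached a knockout, and knockout 3 held more reads than all other libraries together. Mean levels were 5.12 ± 1.05 and 29.7 ± 24.9 CPM (SD, n = 3 per group; log2 fold change 2.53 ± 0.52 SE, edgeR adjusted p 0.0278). Without knockout 3 the log2 fold change was 1.59 and the call was lost (edgeR adjusted p 0.0767). The call was also lost without control 1, 2 or 3 (log2 fold changes 2.41, 2.71 and 2.50, edgeR adjusted p 0.0617, 0.0782 and 0.0681), without knockout 2 (2.78, adjusted p 0.0792) and with knockout 1 and 2 as 1 library (2.85, adjusted p 0.0541), at about the size of the change in all libraries or above it. By limma-voom the log2 fold change was 1.57 (adjusted p 0.0651). The adjoining mt-Nd4, with which it shares its last 7 bases, showed no such order: per kilobase, mt-Nd4 exceeded mt-Nd4l 707, 523 and 408 times in the controls and 246, 159 and 49.7 times in the knockouts.

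Complex III has 1 subunit from mitochondrial DNA, cytochrome b. mt-Cytb (ENSMUSG00000064370, chromosome M, 14145 to 15288) stood at 35016, 47891 and 37094 CPM in the controls and at 57948, 58113 and 64365 CPM in the knockouts. The groups did not overlap, but the gene did not pass (log2 fold change 0.59 ± 0.28, edgeR adjusted p 0.224). DESeq2 gave an adjusted p of 0.00507 and limma-voom 0.0392, and with knockout 1 and 2 as 1 library these were 0.0402 and 0.250.

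Of the complex IV subunits, mt-Co1 encodes the catalytic one (ENSMUSG00000064351, chromosome M, 5328 to 6872). It stood at 18774, 45802 and 36270 CPM in the controls and at 65637, 63115 and 70223 CPM in the knockouts. Control 1 was far below the other two controls, and no control reached a knockout. It did not pass in edgeR (log2 fold change 0.98 ± 0.35 SE, adjusted p 0.122), and DESeq2 gave an adjusted p of 0.00274 and limma-voom 0.00512, or 0.0173 and 0.0981 with knockout 1 and 2 as 1 library. Without control 1 the log2 fold change was 0.69.

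mt-Co2 and mt-Co3, the other complex IV subunits, lie inside the copied stretch. mt-Co2 (chromosome M, 7013 to 7696), the subunit that receives electrons from cytochrome c, had 553, 2546 and 1480 reads in control libraries and 1584, 2215 and 1990 in knockout libraries. mt-Co3 (chromosome M, 8607 to 9390) had 1494, 7341 and 3720 reads and 3800, 5531 and 4574 reads. In both genes control 2 was the highest of all libraries and control 1 the lowest, with the knockouts between them. Neither passed the edgeR test (log2 fold changes 0.37 ± 0.41 and 0.17 ± 0.44, adjusted p 0.626 and 0.854), and without control 1 the fold changes were −0.02 and −0.22, and without control 2 they were 1.09 and 0.99.

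Complex V, the ATP synthase, takes its proton channel subunit from mt-Atp6 and a small accessory subunit from mt-Atp8, which are translated from 1 mRNA. mt-Atp6 (chromosome M, 7927 to 8607) had 1060, 3476 and 1824 reads in control libraries and 2005, 3578 and 2478 in knockout libraries. mt-Atp8 (chromosome M, 7766 to 7969) had 188, 539 and 98 reads and 164, 190 and 176 reads. Neither passed the edgeR test (log2 fold changes 0.36 ± 0.38 and −0.66 ± 0.52, adjusted p 0.601 and 0.479), and without control 2 they were 1.03 and 0.36. That of mt-Atp6 was 0.06 without control 1, 0.18 without control 3 and 0.11 without knockout 2, and that of mt-Atp8 was −1.10 without control 3. Although they share an mRNA, mt-Atp8 was at 0.592, 0.518 and 0.179 of the level of mt-Atp6 per kilobase in the controls and at 0.273, 0.177 and 0.237 in the knockouts. How reads that overlap both genes were counted is not given in the sources used here, and its part in these ratios was not tested.

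The order of levels per kilobase among the 7 abundant genes was mt-Nd1, mt-Cytb, mt-Co1, mt-Nd4, mt-Nd2, mt-Nd6 and mt-Nd5 by the mean of the 6 libraries. In the knockouts the means were 63315 ± 410, 52572 ± 3198, 42929 ± 2332, 9928 ± 174, 6370 ± 336, 6076 ± 225 and 3784 ± 230 CPM per kilobase in that order (SD, n = 3). There mt-Nd2 and mt-Nd6 overlapped, and the other neighbours in the order were apart in all 3 libraries. In the controls mt-Nd1 (38459 ± 10709) overlapped mt-Cytb (34965 ± 6042), and mt-Nd4, mt-Nd2 and mt-Nd6 (9256 ± 2244, 8527 ± 2380 and 8014 ± 2384) overlapped. Within every library, however, mt-Nd1 was above mt-Cytb (1.02, 1.21 and 1.03 times in the controls) and mt-Nd2 above mt-Nd6. In control 1 mt-Nd4 was below both mt-Nd2 and mt-Nd6. For the 2 genes that lie partly in the copied stretch, division of all their reads by only the 1062 and 502 bases outside it gave 62453 ± 3393 for mt-Co1 and 27253 ± 478 for mt-Nd4 in the knockouts, and 31653 ± 12908 and 25407 ± 6159 in the controls. On that scale mt-Co1 overlapped mt-Nd1 in the knockouts, which it did not on the whole length.

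Within the mitochondrially encoded reads the composition differed between the groups, a comparison that does not depend on scaling to nuclear genes. The share of mt-Nd2 was 9.14%, 5.53% and 4.73% in control libraries and 3.14%, 3.22% and 2.74% in knockout libraries. That of mt-Nd6 was 4.45%, 2.52% and 2.19% in control libraries and 1.47%, 1.53% and 1.34% in knockout libraries. That of mt-Nd4 was 11.8%, 8.58% and 7.26% and then 6.45%, 6.45% and 5.92%. In these 3 genes every knockout was below every control, and control 1 was the highest. The share of mt-Co1 was 16.03%, 25.9% and 28.4% in control libraries and 30.5%, 29.6% and 31.0% in knockout libraries, with control 1 the lowest. mt-Nd5 went from 2.71% ± 0.376 to 3.16% ± 0.0876 without overlap, while mt-Nd1 (26.0% ± 1.26 and 27.8% ± 0.767) and mt-Cytb (28.7% ± 1.46 and 27.5% ± 0.779; SD, n = 3 per group) overlapped. Without control 1 the difference in share was 3.24 percentage points for mt-Co1 against 6.94 with it, −2.10 against −3.43 for mt-Nd2, −0.91 against −1.61 for mt-Nd6 and −1.65 against −2.93 for mt-Nd4. For mt-Nd5 the difference was 0.238 without control 2 against 0.452 with it.

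**Figure D3:**
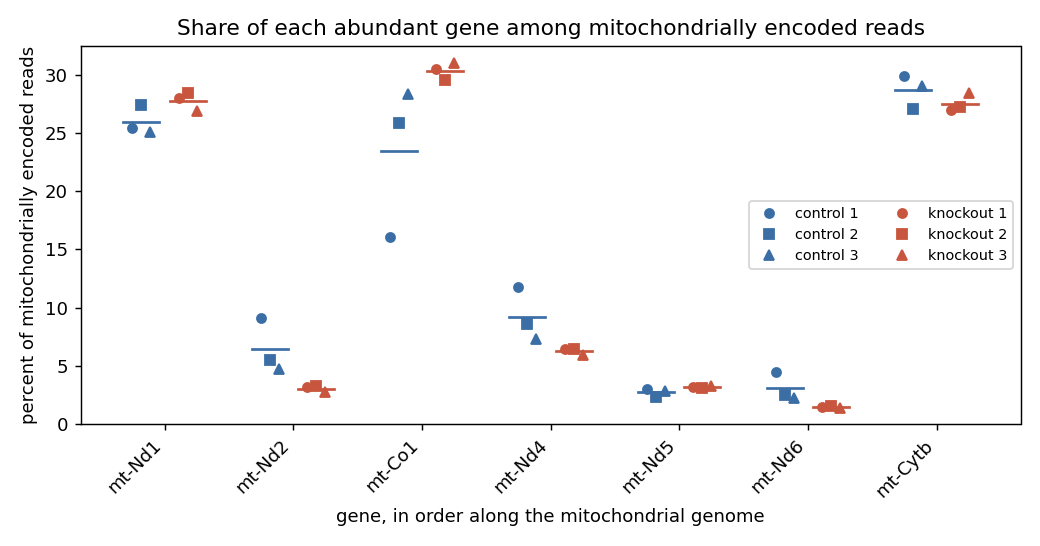
Share of each of the 7 abundant genes among mitochondrially encoded reads, in percent, with 1 point per library and a line at each group's mean. mt-Nd2, mt-Nd4 and mt-Nd6 are lower and mt-Co1 is higher in each knockout than in each control, and control 1 is the control farthest from the knockouts in all 4.

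Scaled to the total of mitochondrially encoded reads, the edgeR fit called 3 members lower (29.5% of all genes) and 1 higher (0.935% of all genes). The 3 were mt-Nd2 (log2 fold change −1.09 ± 0.19, adjusted p 0.00275), mt-Nd6 (−1.08 ± 0.20, adjusted p 0.00346) and mt-Nd4 (−0.55 ± 0.14, adjusted p 0.0126). mt-Nd4l rose (1.87 ± 0.48, adjusted p 0.0120), and mt-Nd1, mt-Co1, mt-Nd5 and mt-Cytb did not pass, at log2 fold changes of 0.10, 0.37, 0.22 and −0.06. On this scale all genes tested had a median of −0.67, since the mitochondrial total used as the scale was higher in the knockouts. The scale is the sum of the members themselves, so a rise in the most abundant ones lowers the others on it. By TMM scaling mt-Nd2, mt-Nd6 and mt-Nd4 were not called (log2 fold changes −0.42, −0.40 and 0.10). This scaling was chosen with earlier results of these data known.

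Ratios between members showed which genes moved together from library to library. mt-Nd2 and mt-Nd6, annotated on opposite strands and far apart on the genome, stayed in nearly 1 ratio: per kilobase mt-Nd2 was at 1.03, 1.10 and 1.08 times mt-Nd6 in the controls and at 1.07, 1.05 and 1.03 times in the knockouts. Over the same libraries the share of mt-Nd2 among mitochondrial reads ranged from 2.74% to 9.14%. The strand of the reads was not kept, so those counted to mt-Nd6 may be of plus-strand RNA, and their part in this ratio was not tested. mt-Nd1 over mt-Cytb also moved little, at 1.02 to 1.21 in controls and 1.13 to 1.25 in knockouts. By contrast, mt-Nd2 did not keep 1 ratio to the genes beside it. mt-Nd1 was 3.02, 5.38 and 5.74 times mt-Nd2 in the controls and 9.68, 9.56 and 10.6 times in the knockouts. mt-Co1, on the other side of mt-Nd2, was 1.18, 3.14 and 4.03 times mt-Nd2 and then 6.54, 6.17 and 7.59 times.

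The same split ran between mt-Nd6 and both genes beside it. mt-Cytb was 3.05, 4.86 and 6.02 times mt-Nd6 per kilobase in the controls and 8.31, 8.08 and 9.63 times in the knockouts, and mt-Nd5 0.190, 0.257 and 0.372 times and 0.605, 0.575 and 0.693 times. In each of these 4 ratios all knockouts were above all controls, and control 1 was the lowest. These pairs were chosen after their values were seen and carry no test, and since mt-Nd2 and mt-Nd6 kept nearly 1 ratio, they are not separate observations. Of other neighbours, mt-Co1 over mt-Co2, mt-Atp8 over mt-Atp6 and mt-Atp6 over mt-Co3 overlapped between the groups. The ratios of mt-Nd5 over mt-Nd4 and mt-Nd4 over mt-Nd4l did not. GC content differed between these genes, which were grouped after their values were seen. mt-Nd2, mt-Nd4 and mt-Nd6 hold 35.7%, 35.6% and 34.1% GC, against 37.6%, 39.9%, 37.1% and 39.1% in mt-Nd1, mt-Co1, mt-Nd5 and mt-Cytb. The content of A overlapped, at 36.9%, 34.8% and 22.2% in the first 3 genes and 32.3%, 29.5%, 34.3% and 31.7% in the other 4. The part of base composition in the result was not tested. The longest runs of A, where oligo-dT could also anneal, are 8, 7 and 3 bases in the first 3 genes and 6, 7, 7 and 5 in the other 4, which overlap. The 3 is for the strand of mt-Nd6 itself, whose longest run of T is 7 bases, a run of A in plus-strand RNA across the gene. The part of these runs in the result was not tested.

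**Figure D4:**
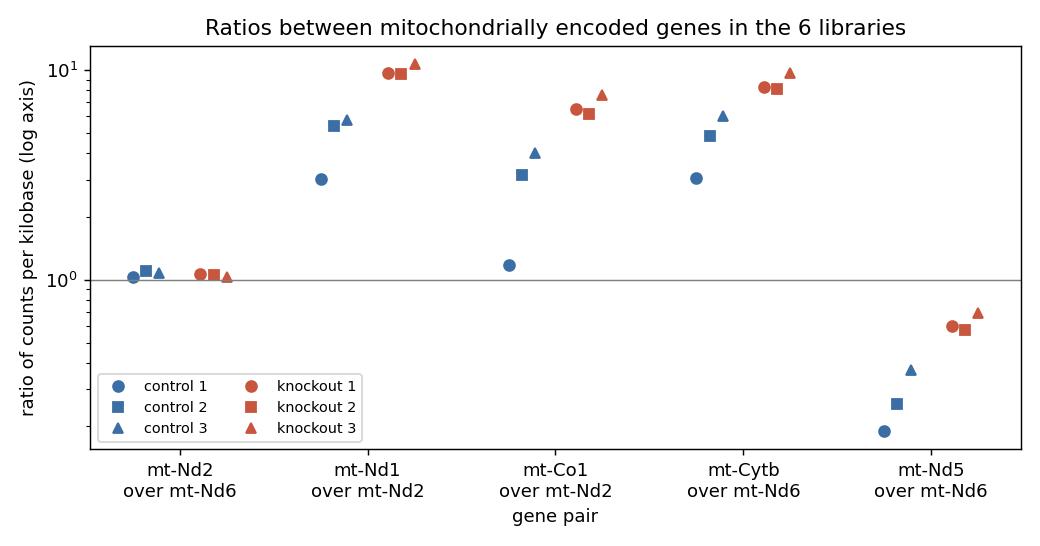
Ratio of counts per kilobase between pairs of mitochondrially encoded genes (log axis), with 1 point per library. The ratio of mt-Nd2 to mt-Nd6 stays between 1.03 and 1.10 in all 6 libraries, while the other 4 ratios are higher in each knockout than in each control.

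The proteins that copy, process and translate this genome are encoded in the nucleus. Of 52 such genes, all tested, 0 were called by edgeR in either direction, while 1 was higher and 9 were lower at an unadjusted p under 0.05, beside 11.3% and 12.8% of all genes. DESeq2 called 1 higher and 2 lower (5.38% and 5.74% of all genes), and limma-voom 2 higher and 6 lower (7.38% and 11.3% of all genes). With knockout 1 and 2 as 1 library all 3 tools called 0 of the 52, where DESeq2 called 1.76% of all genes lower and limma-voom 1.29%. The median log2 fold change of the 52 was −0.17, beside 0.01 for all genes tested. Without overlap between the groups 5 of the 52 were higher and 13 lower, beside 16.8% and 15.8% of all genes.

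The 4 genes with the smallest p were Rnaseh1, Ptcd2, Mtif2 and Elac2. Rnaseh1, which removes RNA from RNA-DNA hybrids and is needed for mitochondrial DNA replication, had means of 10.4 ± 5.44 CPM (controls) and 2.63 ± 1.71 CPM (knockouts) (log2 fold change −1.97 ± 0.55, edgeR adjusted p 0.0633). Ptcd2, a pentatricopeptide repeat protein gene, was at 20.4 ± 2.83 and 33.1 ± 2.22 CPM (log2 fold change 0.70, adjusted p 0.0664). Mtif2, a translation initiation factor, was at 47.3 ± 10.3 and 28.6 ± 1.93 CPM (−0.72, adjusted p 0.0671), and Elac2, which cuts the 3′ ends of tRNAs out of the precursors, at 44.0 ± 5.09 and 29.6 ± 3.28 CPM (−0.57, adjusted p 0.0924; SD, n = 3 per group throughout).

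By role, 0 of 10 transcription genes, 0 of 21 genes of RNA processing, tails and decay, 0 of 11 of DNA maintenance and 0 of 10 of translation were called by edgeR, and 0, 6, 3 and 1 of them had an unadjusted p under 0.05, against the shares of all genes above. The median log2 fold changes were −0.34, −0.12, −0.24 and 0.10. Named for their roles after their values were seen, Tfam, which packages mitochondrial DNA and starts its transcription, stood at 47.5 ± 4.89 and 41.5 ± 3.55 CPM, and the mitochondrial RNA polymerase gene Polrmt at 8.41 ± 1.95 and 6.54 ± 0.736 CPM, both overlapping between groups (log2 fold changes −0.19 and −0.36, edgeR adjusted p 0.527 and 0.539). Mtpap, which adds the poly(A) tails and was likewise named after its values were seen, stood at 14.4 ± 3.20 and 20.3 ± 1.40 CPM without overlap and did not pass (log2 fold change 0.50, edgeR adjusted p 0.244).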

How the data were processed

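The authors deposited whole-number read counts per Ensembl gene for 6 libraries. The submitters' processing notes name edgeR, DESeq2, Trimmomatic 0.39, StringTie 2.1.7 and STAR 2.7.5c, and the build mm10, without saying what each tool did. Not given in the sources used here are the read counter, annotation release, strand setting, filter and treatment of reads with several matches. Each listed gene has at least 1 read over the libraries. The 2 other columns of the deposited table, the sum and the mean over libraries, were not used.

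Symbols, positions and transcript sequences came from GENCODE M21 (22562 of 22579 identifiers matched). Copies were sought with blastn 2.17.0 among annotated transcripts, since no genome sequence was used. A member counted as inside the copied stretch with at least 90% of its length in it, and copies as near-identical from 99% identity.

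The test was edgeR 4.0.16 in R 4.3.3 (quasi-likelihood, robust dispersion, TMM, filterByExpr, genotype as sole term), Benjamini-Hochberg adjusted over 14766 genes, two-sided. The standard error of a log2 fold change is its size divided by the root of the F statistic. limma 3.58.1 and DESeq2 1.42.0 were alternatives, beside other scalings and filters, the replicate block, each library left out and knockout 1 and 2 as 1 library (rounded mean). Fits were tested on simulated data. The members, gene lists, tests and alternatives were chosen with earlier results of these data known. All members, the called factor genes or otherwise the 4 with the smallest p, and Ddx20 were to be named. Marker lists of Leydig, endothelial, T and red blood cells were also read, with summed levels that overlapped between the groups.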

Additional observations from a re-analysis of the deposited data

How the results depend on the processing

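The difference in the share of reads kept its direction and moved by less than 1 SD in every alternative run, from 4.19 to 5.63 percentage points with 1 library left out, 4.81 with knockout 1 and 2 as 1 library and 4.75 without the 6 genes inside the copied stretch (chosen after seeing the data). Leaving out mitochondrial rRNA and tRNA changed nothing, since they are not among the rows. Adding the reads of nuclear copies was not run for the same reason.

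The count of members called higher, 2 in the edgeR fit, was 4 with library size alone, 5 with DESeq2, 4 with limma-voom, 1 with the replicate block, 0, 5 and 2 with knockout 1 and 2 as 1 library by edgeR, DESeq2 and limma-voom, and 0 to 2 with 1 library left out. In the same fits edgeR called 1 gene of all with the pair as 1 library, and 5, 10 and 3 without knockout 1, 2 or 3, against 713. Of all 14766 genes, 226 were called higher with library size alone and 312 with the replicate block, against 300 in the edgeR fit. By DESeq2 5.38% of all genes were called higher and by limma-voom 7.38%. Without control 1, 2 or 3, 414 of 15520, 112 of 15558 and 348 of 15497 genes were called higher. Scaled to mitochondrially encoded reads the count of members called higher was 1, with 3 called lower against 0, beside 0.935% and 29.5% of all genes. Factor genes called lower, 0 in the edgeR fit, were 5 with library size alone, 1 without a filter, 2 with DESeq2, 6 with limma-voom and 0 to 2 with 1 library left out. Of all 14766 genes, those called lower were 1152 with library size alone, 847 with DESeq2 and 1675 with limma-voom, against 413 in the edgeR fit. They were 516 of 22579 without a filter, 425 of 15520 without control 1 and 468 of 15497 without control 3. Factor genes called higher, also 0, were 1 with DESeq2 (5.38% of all genes) and 2 with limma-voom (7.38% of all genes). With knockout 1 and 2 as 1 library both counts were 0 by all 3 tools. No pairing of the libraries by replicate number was seen: the correlations of same-numbered deviations from the group means were −0.00423, 0.00884 and 0.00648. Those of differently numbered libraries ran from −0.0160 to 0.00710. With 3 libraries per group, and knockout 1 and 2 nearly alike, these values cannot settle whether the numbers mark litters.

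Signs that turned were all of genes without a call in the edgeR fit. Scaled to mitochondrially encoded reads, the log2 fold changes were −0.16 for mt-Co2, −0.18 for mt-Atp6, −0.35 for mt-Co3, −0.55 for mt-Nd4 and −0.058 for mt-Cytb. With library size alone mt-Nd4 was at −0.16. With 1 library left out the ranges were −0.016 to 1.09 for mt-Co2, −1.10 to 0.36 for mt-Atp8, −0.22 to 0.99 for mt-Co3 and −0.085 to 0.26 for mt-Nd4. The cause of these differences was not tested. The lowest count of any member in any library was that of mt-Nd4l, at 44 reads in control 1, and the cause of its low counts was not tested.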
